A study of Rattus norvegicus with 8 samples.

Results

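Expression of 5 genes of the choroid plexus was followed through RNA sequencing libraries of hippocampal tissue from 2 inbred rat strains at 32 weeks of age. The genes were Ttr (ENSRNOG00000016275), Kl (ENSRNOG00000001092), Enpp2 (ENSRNOG00000004089), Aqp1 (ENSRNOG00000011648) and Igf2 (ENSRNOG00000020369). The rule that chose them names their Ensembl IDs as genes of this tissue and uses no measured value. The choice was, however, made with earlier results of these data known. They are 5 of the 32623 genes in the deposited counts. All 5 passed the filter on low counts, as did 16867 genes in all. The groups were the spontaneously hypertensive rat (SHR), which develops high blood pressure with age, and its normotensive control strain, the Wistar-Kyoto rat (WKY), with 4 libraries each and no treatment named other than pentobarbital anaesthesia before the tissue was taken in both. Nothing in the labels ties each library to an animal of its own, and the p-values measure only the spread between the libraries, which could be technical. The files hold Ensembl IDs only, so the hippocampal label was not checked against markers of neurons or glia, and the other genes of these pathways are not described.

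The choroid plexus is the secretory tissue in the ventricles of the brain that makes cerebrospinal fluid, and in the lateral ventricle it hangs along the fimbria, at the edge of the hippocampus. Its epithelium is the main site of transthyretin synthesis in the brain, and it also carries water channels and klotho on its surface. A piece of this tissue can come away with a dissected hippocampus, and Ttr is widely used to notice it. In bulk tissue, fewer cells of a type and less RNA per cell cannot be told apart.

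One library stood apart. WKY replicate 4 held the highest level of all 5 genes, and each was at least 4-fold above the highest of the other 7 libraries, which was so for 46 of the 16867 genes tested (0.273%). In every other library, at most 1 gene of all those tested stood that far above the rest. For the 5 genes this could not occur there, since WKY replicate 4 was the highest for each. The 5 genes together took 0.468% of the counts of WKY replicate 4, 0.0137% to 0.0251% in the other WKY libraries and 0.00738% to 0.0105% in the SHR libraries. Library totals were 45048841 to 49560687 counts in SHR and 53045139 to 53699673 in WKY, with every SHR total below every WKY total. Results between strains are therefore given with and without WKY replicate 4.

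Ttr encodes transthyretin, the carrier of thyroxine, and of retinol through retinol-binding protein. In CPM, counts set relative to the size of the library after TMM scaling, it was at 2.02, 8.18, 5.18 and 3.14 CPM in SHR replicates 1 to 4. In WKY replicates 1 to 3 it was at 12.2, 38.1 and 13.1 CPM, and in WKY replicate 4 at 3280 CPM. Every WKY library lay above every SHR library, and WKY replicate 4 lay 86.0-fold above the next library, WKY replicate 2. Ranges that did not overlap, with SHR lower, were found at 3.84% of the genes tested. In WKY replicate 4, 175908 counts fell on Ttr, or 0.328% of the library (95% Wilson interval 0.326% to 0.329%, for counting error only, with each count taken as a fragment). No other of the 16867 genes tested had a larger ratio of WKY replicate 4 to the median of the other libraries.

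Kl encodes klotho, the co-receptor for fibroblast growth factor 23, which is also shed into cerebrospinal fluid. It was at 0.253, 1.14, 0.196 and 0.583 CPM in SHR replicates 1 to 4, from 10 to 53 counts. It was at 1.06, 1.54 and 1.30 CPM in WKY replicates 1 to 3, from 56 to 81 counts, and at 118 CPM in WKY replicate 4, from 6315 counts. SHR replicate 2 lay within the WKY range, and WKY replicate 4 was 76.4-fold above the next library.

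Aqp1 encodes the water channel of the apical membrane of choroid plexus epithelium, which is also found in red blood cells. It was at 0.482, 0.947, 1.10 and 0.354 CPM in SHR replicates 1 to 4. It was at 0.773, 2.28 and 0.564 CPM in WKY replicates 1 to 3 and at 67.1 CPM in WKY replicate 4. Apart from WKY replicate 4, and from WKY replicate 2 as the highest of the rest, the strains lay in the same range. The other 7 libraries held 17 to 120 counts of this gene.

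Enpp2 encodes autotaxin, the secreted enzyme that makes lysophosphatidic acid, and outside the choroid plexus it is known from oligodendrocytes. It was at 89.0, 84.0, 57.4 and 77.0 CPM in SHR replicates 1 to 4. It was at 121, 203 and 115 CPM in WKY replicates 1 to 3 and at 1110 CPM in WKY replicate 4. The strains did not overlap for this gene either, and WKY replicate 4 was 5.47-fold above the next library, the smallest such step among the 5.

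Igf2 encodes insulin-like growth factor 2, a secreted growth factor that is imprinted in most tissues and is also made in the leptomeninges and by blood vessels of the brain. It was at 9.49, 9.32, 7.67 and 6.87 CPM in SHR replicates 1 to 4. It was at 4.92, 9.25 and 8.13 CPM in WKY replicates 1 to 3 and at 114 CPM in WKY replicate 4. Outside WKY replicate 4 the ranges of the strains overlapped, and the highest of the 7 libraries was an SHR library.

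**Figure D1:**
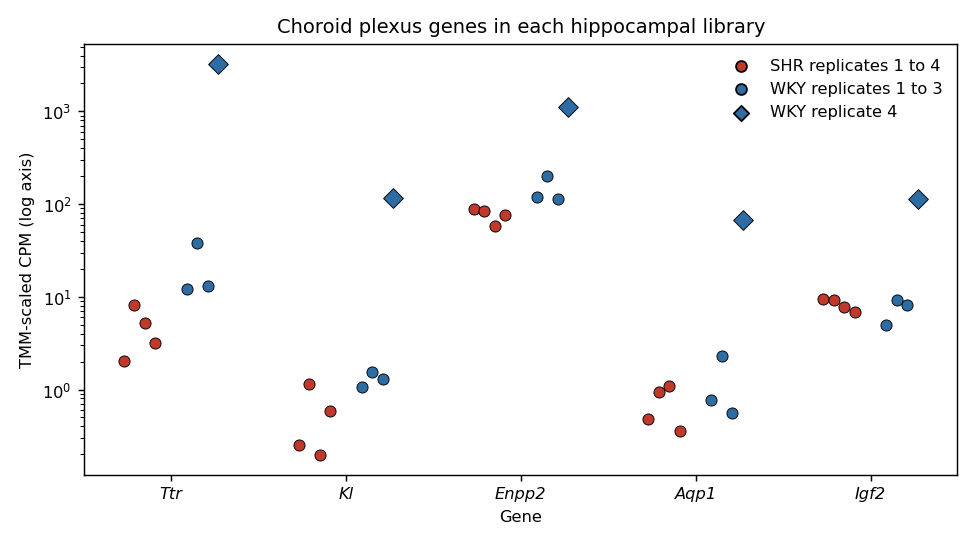
TMM-scaled CPM (log axis) of the 5 genes in each library, with SHR libraries as red circles, WKY replicates 1 to 3 as blue circles and WKY replicate 4 as a blue diamond. WKY replicate 4 is the highest point for every gene, from 67.1 CPM for Aqp1 to 3280 CPM for Ttr.

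The step in WKY replicate 4 differed in size between the genes. Against the mean of WKY replicates 1 to 3 it was 155-fold for Ttr, 90.7-fold for Kl, 55.6-fold for Aqp1, 15.4-fold for Igf2 and 7.60-fold for Enpp2. Among the 16867 genes tested, ordered by the log2 ratio of WKY replicate 4 to the median of the other 7 libraries, Ttr was in place 1, Kl in place 9, Aqp1 in place 10, Igf2 in place 33 and Enpp2 in place 36. The log2 ratios were 8.64 for Ttr, 6.75 for Kl, 6.37 for Aqp1, 3.80 for Igf2 and 3.64 for Enpp2. Over all genes tested the median of this log2 ratio was 0.0015 and 99% of genes were at or below 1.77. All 5 therefore lay in the top 1% for this library. With 1 library showing the step, it has no replicate.

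**Figure D2:**
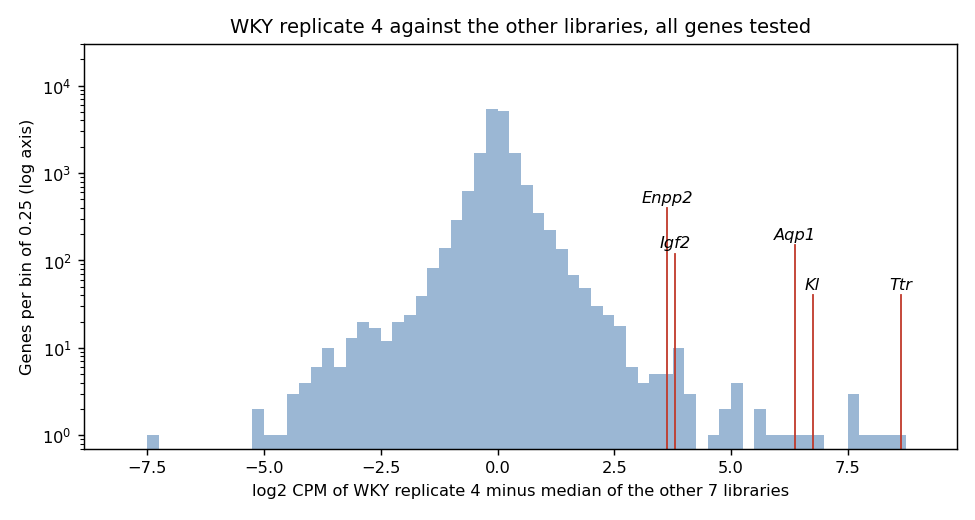
Number of genes (log axis) by the log2 CPM of WKY replicate 4 minus the median of the other 7 libraries, in bins of 0.25, with the 5 genes marked by red lines. Ttr stands at the far right at 8.64, and all 5 lie beyond the 99th percentile of 1.77.

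Among the 5 genes, Kl and Aqp1 were nearest to Ttr in the size of this step, so the stretches of DNA before their transcription starts are shown, from the RefSeq table of rat assembly GRCr8. That table held such a window for 4 of the 5 genes. Each sequence is the 250 bases before the annotated start, read 5′ to 3′ on the strand of the gene. Capitals mark matches, on either strand, to the GC box GGGCGG and the TATA box TATAAA.
Kl, chr12:5325753-5326002, plus strand: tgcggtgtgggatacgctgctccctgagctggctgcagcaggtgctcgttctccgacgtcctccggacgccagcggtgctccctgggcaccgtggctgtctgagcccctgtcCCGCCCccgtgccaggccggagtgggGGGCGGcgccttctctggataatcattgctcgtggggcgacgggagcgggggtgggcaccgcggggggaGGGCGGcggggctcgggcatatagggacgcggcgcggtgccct
Aqp1, chr4:85812534-85812783, plus strand: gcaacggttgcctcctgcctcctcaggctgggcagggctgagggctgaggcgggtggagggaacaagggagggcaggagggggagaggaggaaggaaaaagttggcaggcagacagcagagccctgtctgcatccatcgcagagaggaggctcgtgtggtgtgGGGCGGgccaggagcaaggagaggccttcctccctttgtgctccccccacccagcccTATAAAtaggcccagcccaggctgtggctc

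The Kl window held 3 GC boxes and no TATA box, and 73.2% of its bases were G or C. The Aqp1 window held 1 GC box and 1 TATA box, whose first base lay 30 bases before the start, and was 65.2% G or C. The window of Ttr held neither motif and was 40.4% G or C. The table gave Igf2 2 windows, of which 1 held a GC box and neither held a TATA box. Over all 33469 windows of this length in the table, 30.5% held a GC box and 12.9% a TATA box. The core motif TAATCC, bound by the OTX factors of choroid plexus epithelium among others, was in 6.34% of windows and in none of the windows of Ttr, Kl, Aqp1 and Igf2. A match is only a run of letters, and none of the 3 motifs was in the windows of all 4 genes.

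Over all 8 libraries, none of the 5 genes passed the test between strains, and 6 of the 16867 genes tested did (0.0356%, of which 5, or 0.0296%, were lower in SHR). All 5 had an unadjusted p under 0.05 and a lower level in SHR, as did 7.24% of the genes tested. Ttr averaged 4.63 ± 2.70 CPM over the SHR libraries and 836 ± 1630 CPM over the WKY libraries (SD, n = 4 each), with a log2 fold change of SHR against WKY of -7.49 ± 1.97 (SE; edgeR quasi-likelihood test, adjusted p = 0.233). The log2 fold changes of the others were -5.81 ± 1.71 for Kl, -4.61 ± 1.48 for Aqp1, -2.33 ± 0.68 for Enpp2 and -2.03 ± 0.89 for Igf2 (edgeR, adjusted p = 0.253, 0.274, 0.252 and 0.398). The SD of the WKY libraries was larger than their mean for all 5 genes. Models that weigh the libraries otherwise gave smaller differences, all with SHR lower. In limma-voom with sample quality weights the log2 fold changes were -3.05 for Ttr, -1.998 for Kl, -1.51 for Aqp1, -1.21 for Enpp2 and -0.29 for Igf2, and none passed (limma-voom, adjusted p = 0.168 to 0.825). With the replicate number as a block in edgeR they were -3.18, -3.26, -1.74, -1.56 and -0.60 in the same order (edgeR, adjusted p = 0.494 to 0.868). The median log2 fold change was -4.61 over the 5 genes and -0.0044 over all genes tested.

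Without WKY replicate 4, Ttr and Enpp2 passed the test, both lower in SHR, and Kl, Aqp1 and Igf2 did not. In that comparison 458 of 17029 genes passed (2.69%), 261 of them lower in SHR (1.53%). Over WKY replicates 1 to 3 Ttr averaged 21.2 ± 14.7 CPM (SD, n = 3), with -2.19 ± 0.50 for the log2 fold change (SE; edgeR, adjusted p = 0.0496), or 4.56-fold lower in SHR. Enpp2 averaged 76.9 ± 13.9 CPM over SHR (SD, n = 4) and 146 ± 49 CPM over WKY replicates 1 to 3 (SD, n = 3), with -0.93 ± 0.21 for the log2 fold change (SE; edgeR, adjusted p = 0.0474), or 1.90-fold lower in SHR. Both adjusted p-values lay just under the threshold of 0.05, and it was missed in 12 of 17 alternatives for Ttr (adjusted p = 0.0140 to 0.237 over all 17) and in 10 of 17 for Enpp2 (0.000337 to 0.167), with SHR lower in every one. Ttr missed it when any one further library was left out (edgeR, adjusted p = 0.0510 to 0.237), with the highest value, at a log2 fold change of -1.45, without WKY replicate 2. Enpp2 missed it without any one further library other than SHR replicate 3 (edgeR, adjusted p = 0.0578 to 0.167), again with the highest value without WKY replicate 2, at a log2 fold change of -0.61. With the replicate number as a block, Ttr was at -2.04 and Enpp2 at -0.90 (edgeR, adjusted p = 0.0140 and 0.0675).

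Kl averaged 0.543 ± 0.434 CPM over SHR (SD, n = 4) and 1.30 ± 0.24 CPM over WKY replicates 1 to 3 (SD, n = 3), with -1.25 ± 0.55 for the log2 fold change (SE; edgeR, adjusted p = 0.280). In the same libraries Aqp1 averaged 0.720 ± 0.357 and 1.21 ± 0.94 CPM, with -0.74 ± 0.56 for the log2 fold change (edgeR, adjusted p = 0.552). Leaving out WKY replicate 2 as well turned the log2 fold change of Aqp1 to 0.11. Igf2 averaged 8.34 ± 1.28 and 7.44 ± 2.25 CPM, and its log2 fold change of 0.16 ± 0.22 (edgeR, adjusted p = 0.769) had the opposite sign to that over all 8 libraries. Of the 5 genes, 3 had an unadjusted p under 0.05 and were lower in SHR (Ttr, Kl and Enpp2), against 8.92% of all genes tested, and 2 had ranges that did not overlap (Ttr and Enpp2), against 9.08%. The median log2 fold change was -0.93 over the 5 genes and -0.00065 over all genes tested.

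**Figure D3:**
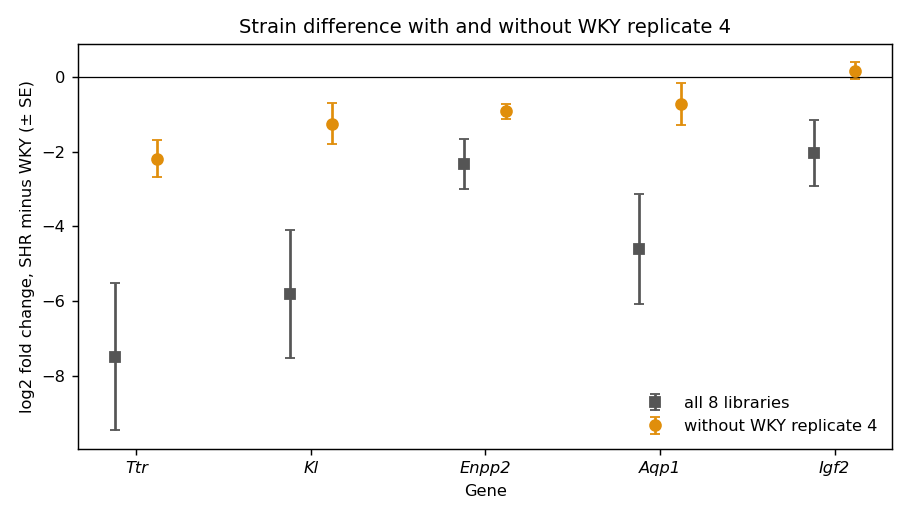
Log2 fold change of SHR against WKY with its standard error from edgeR for the 5 genes, over all 8 libraries (grey squares) and without WKY replicate 4 (orange circles). Ttr moves from -7.49 to -2.19 and Igf2 from -2.03 to 0.16.

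Outside WKY replicate 4, each of the 5 genes varied more between the SHR libraries than most genes at like levels, though Igf2 only slightly. In WKY replicates 1 to 3 all but Kl did so. Among the 4 SHR libraries the highest level was 4.05 times the lowest for Ttr, 5.83 times for Kl and 3.09 times for Aqp1, but 1.55 times for Enpp2 and 1.38 times for Igf2. The coefficient of variation of Ttr in SHR was 0.584, where the median of the 3057 genes with a mean SHR level within 2-fold of it was 0.179. For Aqp1 and Enpp2 it was 0.496 and 0.181 in SHR, above medians of 0.358 and 0.0888. For Igf2 it was 0.153 in SHR, next to a median of 0.147 over 3821 such genes. In WKY replicates 1 to 3 the coefficient of variation was 0.696 for Ttr, 0.778 for Aqp1, 0.338 for Enpp2 and 0.302 for Igf2. The medians of genes at like levels were 0.0919, 0.262, 0.0675 and 0.127 in the same order. For Kl it was 0.187 in these libraries, below a median of 0.257, whereas in SHR it was 0.798 next to a median of 0.382. WKY replicate 2 was the highest of these 3 libraries for all 5 genes. Against the mean of WKY replicates 1 and 3 it was 3.42-fold higher for Aqp1, 3.01-fold for Ttr, 1.73-fold for Enpp2, 1.42-fold for Igf2 and 1.31-fold for Kl.

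Whether the other genes followed Ttr was asked in the 7 libraries other than WKY replicate 4, since a correlation over all 8 would rest on that library. On the log2 CPM scale, Pearson's r with Ttr was 0.80 for Enpp2 (exact permutation test, two-sided p = 0.0337), 0.80 for Kl (exact permutation p = 0.0341) and 0.76 for Aqp1 (exact permutation p = 0.0446), each with an adjusted p of 0.0595 by Benjamini-Hochberg over the 4 pairs, above the threshold. For Igf2 it was -0.033 (exact permutation p = 0.941, adjusted p = 0.941). Spearman's rho was 0.86 for Kl, 0.71 for Enpp2, 0.61 for Aqp1 and -0.14 for Igf2 (exact permutation p = 0.0238, 0.0881, 0.167 and 0.783, adjusted p = 0.0952, 0.176, 0.222 and 0.783). The libraries farthest from the median of Ttr were WKY replicate 2 and SHR replicate 1. Without both, r was 0.78 for Enpp2, 0.66 for Kl and 0.34 for Aqp1. Without WKY replicate 2 alone it was 0.54, 0.77 and 0.47 in the same order. Without SHR replicate 1 alone it was 0.91, 0.70 and 0.74. The value for Aqp1 thus leaned on WKY replicate 2. That for Enpp2 fell to 0.54 without WKY replicate 2 while SHR replicate 1 was kept, but was 0.78 without both. Without SHR replicate 3, Kl, Enpp2 and Aqp1 passed (r = 0.91, 0.87 and 0.84, exact permutation test, adjusted p = 0.0167, 0.0361 and 0.0481). None of these genes passed when any other single library was left out (exact permutation test, adjusted p = 0.0667 to 0.45). Ttr also separated the strains, so the r and p-values above take in the strain difference. For that reason r was taken again on deviations from the strain means, a choice made after the data were seen. It was then 0.86 for Aqp1, 0.52 for Kl, 0.42 for Igf2 and 0.37 for Enpp2 (exact permutation test within strains over 144 arrangements, two-sided p = 0.0556, 0.306, 0.472 and 0.472, adjusted p = 0.222, 0.472, 0.472 and 0.472). For Enpp2, SHR replicate 1 had the lowest Ttr and the highest Enpp2 of the SHR libraries, while in WKY replicates 1 to 3 both genes were highest in replicate 2.

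**Figure D4:**
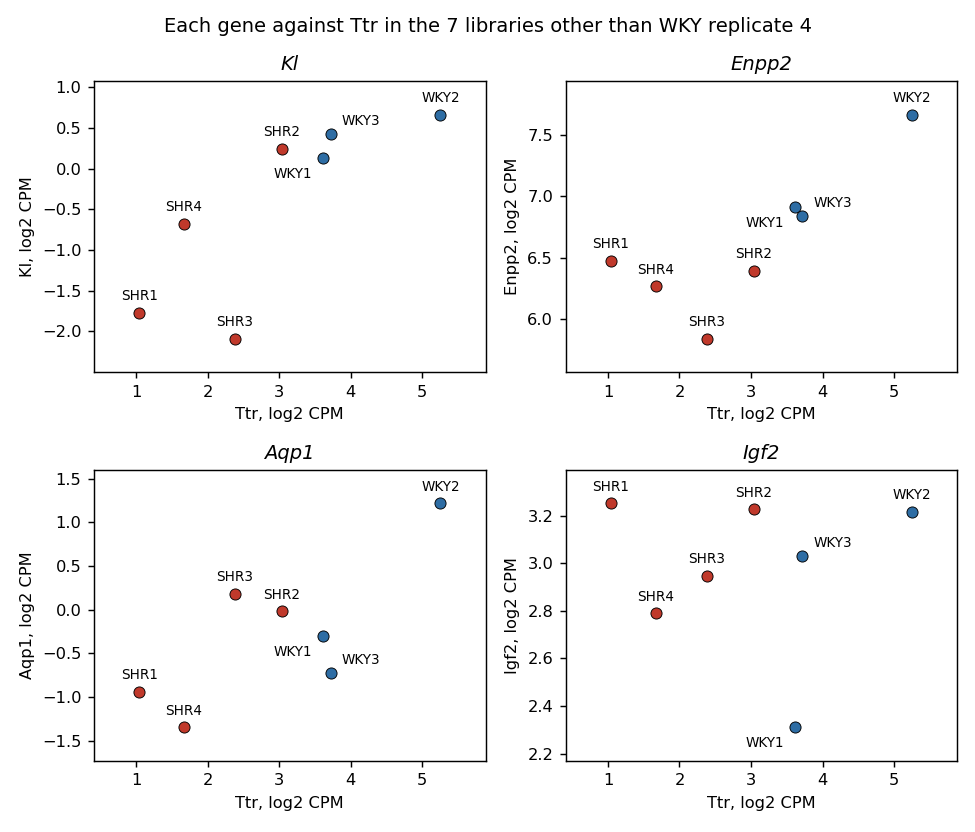
Log2 CPM of Kl, Enpp2, Aqp1 and Igf2 against that of Ttr in the 7 libraries other than WKY replicate 4, with SHR in red and WKY in blue. WKY2 is the farthest right in each panel, and for Kl, Enpp2 and Aqp1 it is also the highest.

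Counts of a gene per 1000 Ttr counts of the same library show how far it kept pace with Ttr, and gene length does not affect how such a ratio differs between libraries. For Kl the ratio was 125, 139, 37.7 and 185 in SHR replicates 1 to 4, and 86.6, 40.4, 98.7 and 35.9 in WKY replicates 1 to 4. WKY replicate 4 therefore had the lowest ratio of Kl to Ttr, close to SHR replicate 3 and WKY replicate 2, although its Ttr level was far higher. For Aqp1 the ratio was 113 to 239 in SHR, 42.9 to 63.4 in WKY replicates 1 to 3 and 20.5 in WKY replicate 4. For Igf2 it was 1139 to 4693 in SHR, 243 to 619 in WKY replicates 1 to 3 and 34.8 in WKY replicate 4. For Enpp2 it was 10274 to 44034 in SHR, 5320 to 9884 in WKY replicates 1 to 3 and 338 in WKY replicate 4. In WKY replicate 4 the ratios of Enpp2 and Igf2 thus lay much further below those of the other WKY libraries than the ratios of Kl and Aqp1 did. Ttr had the largest step of all genes tested in WKY replicate 4, so low ratios to it there largely restate the step sizes given above. It was also lower in SHR than in WKY replicates 1 to 3, so higher ratios in SHR largely restate that difference.

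**Figure D5:**
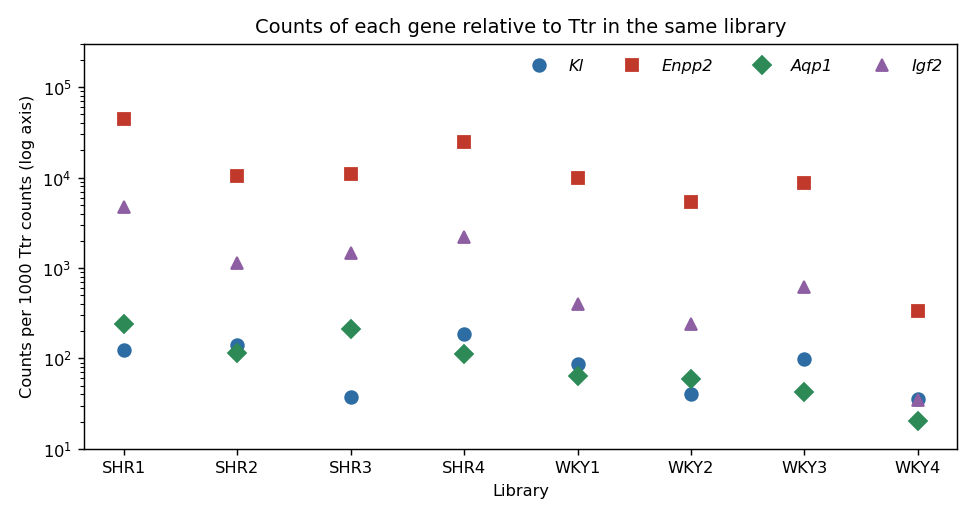
Counts of Kl, Enpp2, Aqp1 and Igf2 per 1000 Ttr counts (log axis) in each of the 8 libraries. All 4 genes have their lowest ratio in WKY4, from 20.5 for Aqp1 to 338 for Enpp2.

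Among the 13472 other genes whose log2 CPM averaged 1 or more, ordered by Pearson's r with Ttr over the 8 libraries, Kl was in place 9, Enpp2 in place 12, Aqp1 in place 13 and Igf2 in place 77. Their r was 0.97, 0.97, 0.97 and 0.89, the median of all these genes was 0.017, and 24 genes reached 0.95. These values rest on WKY replicate 4 and serve only to place the genes. The gene most like Ttr was ENSRNOG00000039107 (r = 0.99, and 0.96 over the 7 other libraries). It was at 0.528 to 1.05 CPM in SHR, at 1.30 to 4.99 CPM in WKY replicates 1 to 3 and at 203 CPM in WKY replicate 4. The next was ENSRNOG00000025639 (r = 0.99, and 0.96 over the 7 other libraries), at 23.1 to 26.3 CPM in SHR, 26.6, 28.9 and 26.7 CPM in WKY replicates 1 to 3 and 45.3 CPM in WKY replicate 4. Both had WKY replicate 2 as the highest of the other 7 libraries, as Ttr did. They were picked by r with Ttr over libraries that include these 7, so this and the r of 0.96 partly follow from the choice.

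The number of genes that differed between the strains was also taken with the log2 CPM of Ttr as a term beside strain. Over all 8 libraries 275 genes then passed (edgeR, adjusted p under 0.05), 147 of them lower in SHR, against 6 without this term. Of the 275, 258 (93.8%) were among the 458 that passed without WKY replicate 4, or 56.3% of those. The log2 CPM of Ttr was 11.7 in WKY replicate 4 and 1.04 to 5.25 in the 7 other libraries. Over all 8 libraries the term therefore mostly sets WKY replicate 4 apart. Overlap with the fit that leaves this library out can arise from that alone, so it is no measure of choroid plexus tissue. How much of it arose so was not tested. In the 7 other libraries the same term brought the number from 458 to 18, all 18 among the 458. Ttr itself separated the strains in those 7 libraries, so the term and strain overlap there. How much choroid plexus tissue each dissection held was not measured apart from these RNAs, and its part in these counts was not tested.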

How the data were processed

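The authors deposited raw read counts per Ensembl gene as 1 matrix of 8 libraries and as 8 single-library tables, all 8 identical to the matrix. The rn6 build, StringTie 1.3.4d, HISAT2 2.0.4 and cutadapt 1.9 are named per the submitters' processing notes. For the annotation and strand setting nothing is given, so reads of overlapping or antisense genes could not be told apart. In all 8 libraries a count of 4 was commoner than a count of 3, so low counts may not be tallies of single fragments. Strain and replicate number were taken from the titles. The headers of 4 single-library tables carry other numbers. The replicate block and the check of same-numbered libraries therefore hold only for the numbers in the titles.

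The 5 genes were given as Ensembl IDs with symbols. The genes and lists were chosen with earlier results of these data known. The RefSeq table paired 0 of its genes with an Ensembl ID, so 14 marker and pathway lists were not matched and not used. The rule for named genes took the 5 genes and, without symbols, at most 2 IDs with the highest Pearson's r with Ttr (average log2 CPM of at least 1).

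Strains were compared with edgeR 4.0.16 (R 4.3.3): quasi-likelihood F test, TMM, filterByExpr, strain as the only term, Benjamini-Hochberg over all genes tested. The standard error was the log2 fold change divided by the square root of F. Log2 CPM used a prior count of 2. Alternatives were RLE scaling, totals only, the 5 genes left out of the totals, other filters, DESeq2 1.42.0, limma-voom (limma 3.58.1) with and without quality weights, robust empirical Bayes, the replicate block, Ttr as a covariate and each library left out. Repeats on 7 libraries were chosen after seeing the data. The edgeR script was tested on simulated data. Libraries of a strain differed by a chi-square per degree of freedom of at least 15.5 (over genes holding 40 or more counts in both together), so none was treated as a duplicate. Same-numbered libraries did not deviate together (correlations of -0.157 to -0.0034).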

Additional observations from a re-analysis of the deposited data

Results flagged for a closer look

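Each gene was screened in each strain for a library far from the other 3, 10 sets in all. Of these 5 stood out by Dixon's test on CPM. Chance alone would mark about 1 in 20 if CPM were normally distributed, which was not checked. All 5 were WKY replicate 4, whose gap to the next WKY library was 0.911 to 0.996 of the whole range. Its levels were 3280 CPM for Ttr, 118 CPM for Kl, 1110 CPM for Enpp2, 67.1 CPM for Aqp1 and 114 CPM for Igf2. These are not 5 independent observations, since they come from the same library.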

How the results depend on the processing

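Over all 8 libraries the 5 genes stayed short of the threshold, with SHR lower, in every alternative that gave a p-value other than leaving out WKY replicate 4. DESeq2 gave none of the 5 a p-value, and the filter of at least 1 CPM in at least 4 libraries removed Aqp1. Leaving out 1 library gave log2 fold changes from -7.91 to -2.19 for Ttr, -2.63 to -0.93 for Enpp2 and -2.39 to 0.16 for Igf2. With all 8 libraries kept, limma-voom gave -4.03 for Ttr, -3.21 for Kl, -2.12 for Aqp1, -1.64 for Enpp2 and -0.81 for Igf2. The number of genes that passed was 6, and it became 3 with the 5 genes left out of the library totals, 3 with no filter, 334 with DESeq2, 230 in limma-voom with sample quality weights and 275 with Ttr as a covariate. Leaving out 1 library gave 1 to 458 genes. Nothing in the labels pairs the libraries, and same-numbered libraries did not deviate together, so a block on the replicate number splits them only by a shared number. With that replicate block 1 gene passed over 8 libraries and 123 without WKY replicate 4. In that model, without that library, Ttr was at -2.04 and Enpp2 at -0.90.

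Without WKY replicate 4, Ttr lost the threshold with RLE scaling (-2.19), totals only (-2.16), no filter (-2.19), limma-voom (-2.15) and robust empirical Bayes (-2.19). Enpp2 lost it with no filter (-0.93), limma-voom (-0.90) and robust empirical Bayes (-0.93). Both kept it with DESeq2 (-2.19 and -0.92) and in limma-voom with sample quality weights (-2.28 and -0.91). Leaving out 1 further library gave -2.61 to -1.45 for Ttr, -1.07 to -0.61 for Enpp2, -1.08 to 0.11 for Aqp1 and -0.061 to 0.35 for Igf2, which turned sign without WKY replicate 1. The number of genes went from 458 to 302 with no filter, 1216 with DESeq2, 863 with quality weights, 18 with Ttr as a covariate, and 127 (without WKY replicate 2) to 662 (without SHR replicate 3) with 1 further library left out. On the linear CPM scale r with Ttr was 0.78 for Kl and 0.95 for Enpp2, which then passed, and 0.20 for Igf2. On deviations from the strain means, Igf2 was at 0.42. Leaving out 1 library gave r from 0.70 to 0.91 for Kl, 0.54 to 0.91 for Enpp2, 0.47 to 0.87 for Aqp1 and -0.40 to 0.29 for Igf2. The causes of these changes were not tested.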
